A study of Homo sapiens with 12 samples.

Results

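The genes described here encode the heat shock proteins and chaperonins of the cytosol and the mitochondrion, with the co-chaperones and transcription factors that serve them. They were measured in HK-2 cells, an immortalised human line of renal proximal tubular epithelium, given a low dose of Ota or control vehicle. The members were all probe sets that the platform annotation pairs with exactly 1 gene symbol out of a list of 43 genes. There were 85 such probe sets among 41091 with 1 symbol, and they read 37 of the 43 genes. Of these, 71 probe sets and 36 genes exceeded log2 4 in 3 or more arrays and were tested. DNAJB5, a J-domain gene, stayed at log2 values of 2.30 to 2.33 on its brightest probe set in all 12 arrays and was not tested. HSPA1A, HSPA1B, HSPA8 and TCP1 were paired only with probe sets of several symbols, and AHSA1 and HSF2 with none, so these 6 genes were not analysed here. The list's HSPB11 is now named IFT25.

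By its design text the study looks for expression patterns that mark toxicity, and its 12 arrays form 4 groups of 3: Ota at 24 h, control at 24 h, Ota at 72 h and control at 72 h. The dose is given as low, with no concentration, and Ota is not spelled out. OTA is the usual abbreviation of ochratoxin A, a nephrotoxic mould toxin. All groups were grown in a medium whose listed supplements include epidermal growth factor, hydrocortisone, insulin, transferrin and selenite, and were exposed close to confluence. Arrays of a group are labelled biological replicates, with nothing on what the cultures shared, so each p-value covers the spread among these samples alone. The line is a single immortalised one. Of 14 proximal tubule markers with a named probe set, 3 (PAX8, KRT8 and KRT18) passed the filter, and the transport markers LRP2, CUBN, SLC34A1 and AQP1 did not. The fibroblast list had 3 of 7 above the filter (COL1A1, DCN and LUM), the podocyte list 3 of 5, and the endothelial, leukocyte and distal nephron lists 0. Within groups, arrays had pairwise correlations of 0.986 to 0.994 over the 10699 genes tested. The 3′ minus 5′ signal of the actin control probe sets on the log2 scale, a sign of RNA quality, was 1.17 ± 0.12 (SD, n = 3) in Ota and 1.01 ± 0.21 in control cells at 24 h, and 1.28 ± 0.08 and 1.18 ± 0.17 at 72 h. Its part in the results was not tested.

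HSP70 proteins bind unfolded stretches of other proteins in a cycle of ATP hydrolysis. J-domain proteins start that cycle, and HSP110 and BAG proteins release ADP to end it. HSP90 takes partly folded clients such as kinases and steroid receptors from HSP70 with the help of co-chaperones. Small heat shock proteins hold unfolded proteins without ATP. TRiC, the cytosolic chaperonin, encloses actin and tubulin in a double ring, and HSPD1 with its lid HSPE1 does so for proteins of the mitochondrial matrix. In unstressed cells HSF1 is held inactive. When unfolded proteins build up it binds inverted repeats of GAA, called heat shock elements, in the promoters of many of these genes. Renal tubular cells are known to raise heat shock proteins after ischaemia and after toxic injury.

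Promoter windows from RefSeq (GRCh38.p14), of which the 250 bases before each start site were read, were found for 39 of the 43 genes, in 55 windows. They are shown because genes that carried the same heat shock element differed in their response to Ota. The element searched was a run of 3 units, GAA, TTC and GAA, with NN between neighbours, or its reverse complement, which starts and ends with TTC, so both strands were covered. Matches may overlap. It was present in 6 of the 55 windows (10.9%) and in 0.441% of all 35116 windows of that length. The shorter GAANNTTC or TTCNNGAA, each its own reverse complement and each part of the longer element, was present in 17 of 55 windows (30.9%) and in 11.6% of all. CRYAB, HSPA14, FKBP4 and HSF1 had no window and were not searched. The search allowed no mismatch, and DNAJB1, HSPB1, HSPA1A and HSPA1B were among the genes with the shorter form alone. The 6 genes with the longer element were CHORDC1, DNAJB6, HSP90AA1, HSP90AB1, HSPD1 and HSPA8. The last of these was paired only with probe sets of several symbols and was not analysed. The windows of the other 5 are printed 5′ to 3′ on the gene's strand with the elements in capitals. They lie at chr11:90223050-90223299 (minus strand) for CHORDC1, chr7:157336754-157337003 (plus) for DNAJB6, chr14:102087045-102087294 (minus) for HSP90AA1, chr6:44247693-44247942 (plus) for HSP90AB1 and chr2:197499841-197500090 (minus) for HSPD1.
CHORDC1: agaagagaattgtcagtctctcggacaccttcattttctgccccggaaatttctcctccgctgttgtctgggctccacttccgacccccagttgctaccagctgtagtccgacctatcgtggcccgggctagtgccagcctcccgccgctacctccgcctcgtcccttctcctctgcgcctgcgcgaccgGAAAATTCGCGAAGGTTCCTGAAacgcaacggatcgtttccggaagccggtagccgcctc
DNAJB6: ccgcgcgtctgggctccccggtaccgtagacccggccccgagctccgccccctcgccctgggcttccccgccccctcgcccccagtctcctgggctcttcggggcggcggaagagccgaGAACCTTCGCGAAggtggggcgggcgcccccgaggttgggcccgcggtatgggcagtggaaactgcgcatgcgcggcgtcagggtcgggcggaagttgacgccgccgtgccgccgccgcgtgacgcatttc
HSP90AA1: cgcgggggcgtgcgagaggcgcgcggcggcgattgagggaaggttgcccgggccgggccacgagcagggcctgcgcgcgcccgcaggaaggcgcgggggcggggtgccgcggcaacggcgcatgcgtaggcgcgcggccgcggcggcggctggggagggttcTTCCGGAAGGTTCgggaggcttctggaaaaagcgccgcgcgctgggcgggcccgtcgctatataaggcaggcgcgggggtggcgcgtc
HSP90AB1: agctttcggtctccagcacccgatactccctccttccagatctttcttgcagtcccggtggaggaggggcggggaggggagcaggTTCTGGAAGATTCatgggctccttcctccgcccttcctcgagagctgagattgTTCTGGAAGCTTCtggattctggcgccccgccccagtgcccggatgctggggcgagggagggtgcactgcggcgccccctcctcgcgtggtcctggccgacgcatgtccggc
HSPD1: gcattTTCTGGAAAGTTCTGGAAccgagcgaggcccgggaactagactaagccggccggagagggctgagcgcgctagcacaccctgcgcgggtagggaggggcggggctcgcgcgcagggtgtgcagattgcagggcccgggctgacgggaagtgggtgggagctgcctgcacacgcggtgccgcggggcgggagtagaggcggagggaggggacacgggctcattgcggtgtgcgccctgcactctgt
The element ends 38 bases before the start in CHORDC1, 119 in DNAJB6, 76 in HSP90AA1, 100 in HSP90AB1 and 228 in HSPD1. A match describes these letters and does not show that HSF1 was bound.

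At 24 h 7 of the 36 chaperone genes were higher and 7 lower with Ota, against control, and at 72 h 12 were higher and 2 lower (limma, adjusted p below 0.05 over all genes tested). Over all 10699 genes, 9.44% were higher and 21.6% lower at 24 h, and 17.1% higher and 14.9% lower at 72 h. The median log2 fold change was 0.05 for the chaperone genes and -0.06 for all genes at 24 h, and 0.12 and 0.01 at 72 h. On the brightest probe sets, which these counts use, no chaperone gene rose more than 2.61-fold, and the strongest fall left 0.434 of the control level. All 3 Ota arrays lay above all 3 control arrays for 9 chaperone genes at 24 h and below for 7. At 72 h it was 16 and 4. Over all 10699 genes it was 1650 and 2919 at 24 h, and 2786 and 2712 at 72 h. Lack of overlap, named for single genes below, was thus common over all genes. The plot of responses shows that the J-domain genes had the widest spread at 24 h, while the chaperonin subunits lay close together. The count of 12 at 72 h was 7 without Ota 72 h replicate 2 and 7 without control 72 h replicate 1, and the count of 2 was 1 without Ota 24 h replicate 1, Ota 72 h replicate 3, control 24 h replicate 1 or control 72 h replicate 2. With the arrays set to 1 common median over the genes tested, the median of all genes at 24 h moved from -0.06 to 0.07, and the 24 h counts were 11 higher and 5 lower, with 1881 higher and 1694 lower over all genes against 1010 and 2307 as deposited. This shift, called 1 common median below, was added after the data were seen. The planned shift to a common median of all probe sets went the other way at 24 h, with 870 higher and 2440 lower over all genes.

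**Figure D1:**
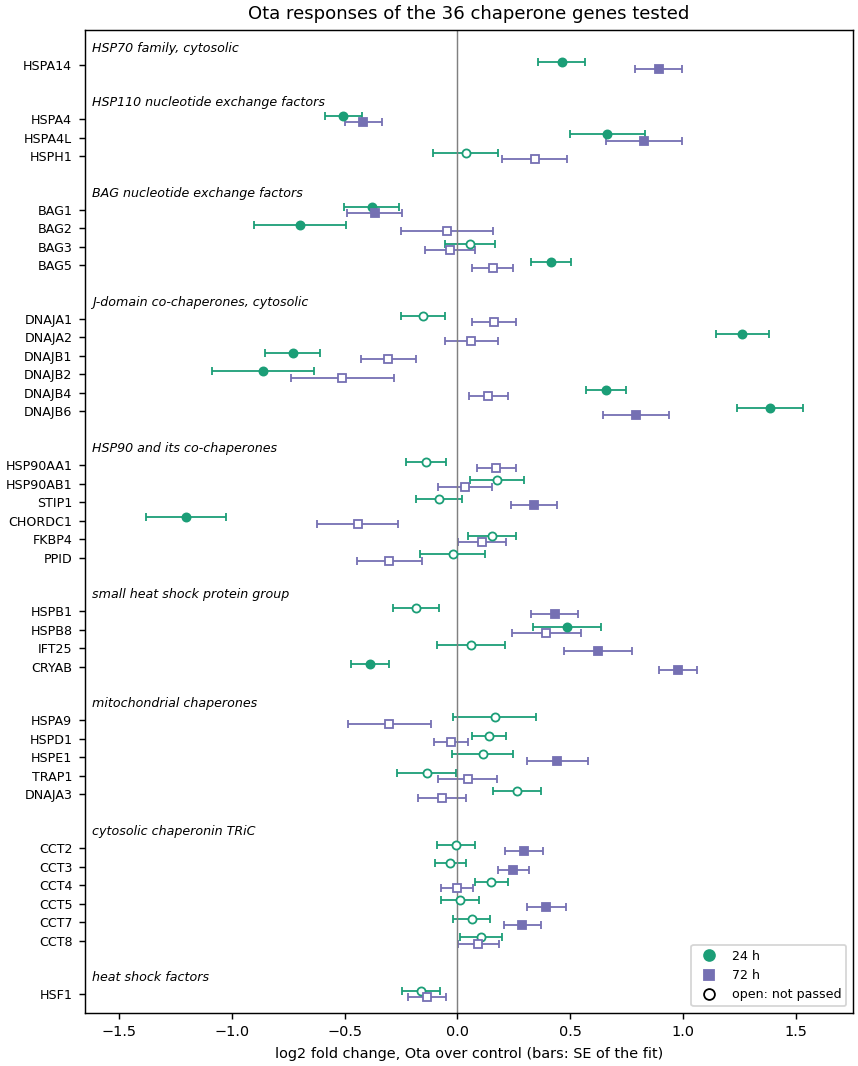
Log2 fold change of Ota over control (x axis) for the 36 chaperone genes tested, by role, at 24 h (circles) and 72 h (squares), with bars for the SE of the fit and filled symbols for genes past the threshold. DNAJB6 and DNAJA2 lie farthest to the right at 24 h, at 1.38 and 1.26, and CHORDC1 farthest to the left, at -1.20.

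Among the J-domain genes, which deliver clients to HSP70, 3 of 6 rose at 24 h and 2 fell, beside 9.44% and 21.6% of all genes. DNAJB6, a suppressor of protein aggregation, had log2 values of 9.19, 9.20 and 8.97 in Ota cells, against 7.84, 7.55 and 7.81 in control cells at 24 h. The 72 h values were 8.87, 9.11 and 8.69 in Ota cells, against 8.33, 8.10 and 7.87 in control cells. All 3 Ota arrays lay above all 3 control arrays at both times, and the rises were 2.61-fold (log2 1.38 ± 0.14, SE, n = 3 per group, adjusted p = 4.21e-05) and 1.73-fold (0.79 ± 0.14, adjusted p = 0.00179). DNAJA2 at 24 h had 10.58, 10.70 and 10.59 in Ota cells, against 9.42, 9.12 and 9.56 in control cells. The 24 h groups were more than 1 log2 unit apart, a 2.40-fold rise (adjusted p = 1.88e-05). At 72 h the groups overlapped, with 10.39, 10.45 and 10.35 in Ota cells against 10.29, 10.51 and 10.22 in control cells. The other probe set of DNAJA2 did not show this rise: it was at -0.19 ± 0.10 at 24 h (adjusted p = 0.196) and fell by 0.42 ± 0.10 at 72 h (adjusted p = 0.012). Averaging both gave 0.53 at 24 h (adjusted p = 0.000427). DNAJB4, an HSP70 partner of muscle and other tissues, had 8.97, 9.04 and 8.93 in Ota cells at 24 h, against 8.36, 8.28 and 8.33 in control cells. It rose 1.58-fold (adjusted p = 0.000211) with no overlap, and its other probe set rose by 0.82. At 72 h its groups overlapped, at 9.00 to 9.27 in Ota cells and 8.93 to 9.05 in control cells.

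The stress-inducible DNAJB1, the main J-domain partner of HSP70 in the heat shock response and a classic HSF1 target, moved the other way. It had 8.86, 8.68 and 8.93 in Ota cells, against 9.54, 9.68 and 9.44 in control cells at 24 h, a fall by 0.73 ± 0.12 (adjusted p = 0.000974). Both of its probe sets fell, without overlap. At 72 h it was at -0.31 ± 0.12 (adjusted p = 0.0778), or at -0.42 (adjusted p = 0.024) without Ota 72 h replicate 2. DNAJB2, a J-domain gene best known from neurons, fell at 24 h by 0.86 ± 0.23 (adjusted p = 0.0134), to 4.86, 4.70 and 4.52 in Ota cells against 5.64, 5.77 and 5.25 in control cells. These levels lie close to the filter. At 72 h DNAJB2 was at -0.51 ± 0.23 (adjusted p = 0.11), or at -0.81 (adjusted p = 0.00482) without Ota 72 h replicate 2, the array with 6.65 where the other 2 had 5.83 and 5.66. DNAJA1, a general HSP70 partner, passed at neither time (-0.15 and 0.16).

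**Figure D2:**
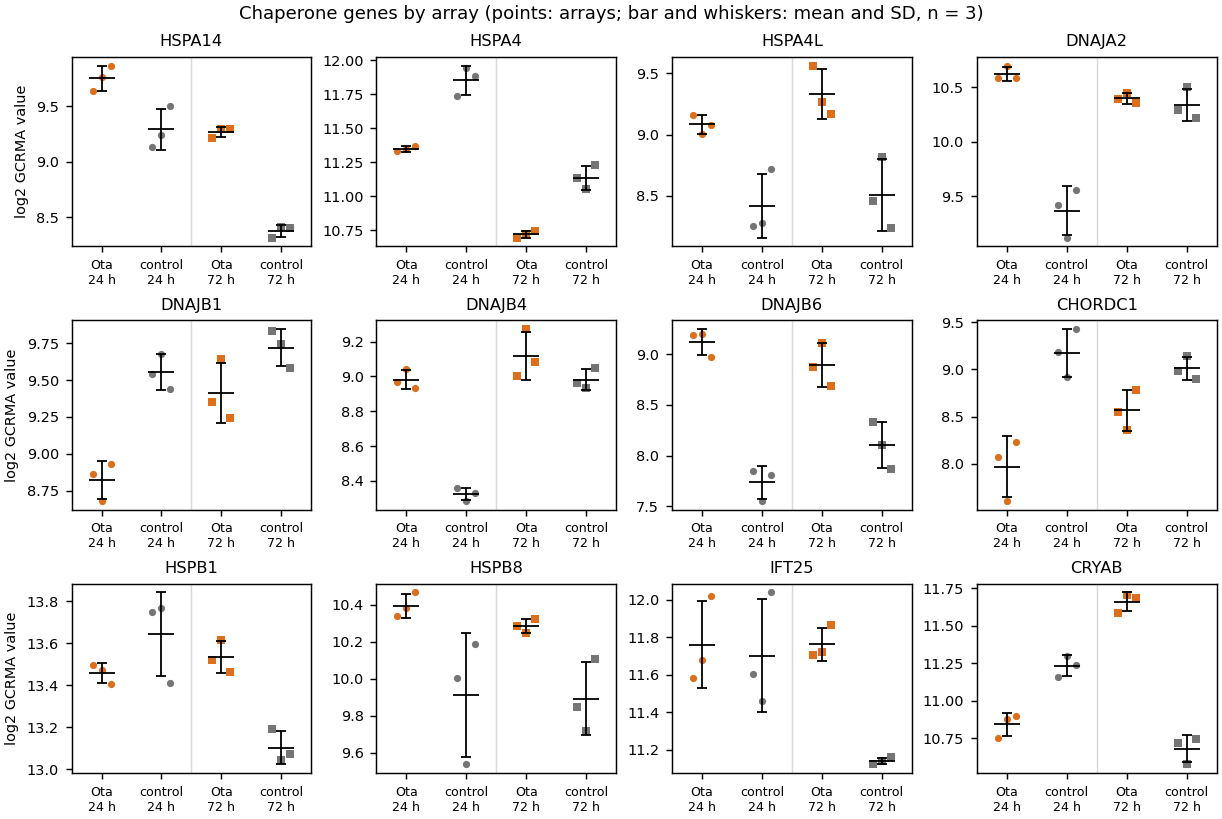
Log2 GCRMA value (y axis) of 12 chaperone genes in each array of the 4 groups (x axis), each from its brightest probe set, with the mean and SD of 3 arrays. CRYAB lies below control in Ota cells at 24 h and above it at 72 h, while DNAJB6 lies higher at both times.

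Of the HSP70 genes, HSPA14, a ribosome-associated HSP70, was the only member tested. Its brightest probe set had 9.64, 9.76 and 9.86 in Ota cells, against 9.13, 9.25 and 9.50 in control cells at 24 h. The 72 h values were 9.22, 9.30 and 9.30 in Ota cells, against 8.32, 8.41 and 8.41 in control cells. It rose 1.38-fold at 24 h and 1.85-fold at 72 h (adjusted p = 0.00558 and 0.000106), with no overlap at either time. Its other 2 probe sets fell at 24 h, by 0.73 ± 0.18 and 1.20 ± 0.31 (adjusted p = 0.00937 and 0.0117), so the gene has no single direction at that time. The mean of the 3 fell by 0.49 (adjusted p = 0.0304), and at 72 h it was at 0.13 (adjusted p = 0.535).

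HSPA4, HSPA4L and HSPH1 encode the HSP110 proteins, which exchange the nucleotide of HSP70. HSPA4 fell at both times on its brightest probe set, to 11.33, 11.35 and 11.37 in Ota cells against 11.73, 11.94 and 11.89 in control cells at 24 h. The 72 h values were 10.69, 10.72 and 10.74 in Ota cells, against 11.13, 11.05 and 11.23 in control cells. The falls were by 0.51 ± 0.08 and 0.42 ± 0.08 (adjusted p = 0.000819 and 0.00292), without overlap. That probe set carries the suffix of sets that may cross-match other transcripts, and 2 further probe sets of HSPA4 fell by similar amounts, 0.53 and 0.55 at 24 h. Its dimmest probe set rose instead, by 2.00 at 24 h and 0.84 at 72 h, so HSPA4 also has no single direction. Averaging all 4 gave 0.10 at 24 h and -0.11 at 72 h (adjusted p = 0.315 and 0.258). HSPA4L rose 1.58-fold at 24 h and 1.77-fold at 72 h (adjusted p = 0.0108 and 0.00337). Its Ota arrays had 9.16, 9.01 and 9.08 at 24 h and its control arrays 8.26, 8.28 and 8.72. Its other probe set was at -0.32 ± 0.19 and 0.45 ± 0.19 and passed at neither time, and averaging both gave 0.17 (adjusted p = 0.443) at 24 h. HSPH1 was at 0.04 ± 0.14 at 24 h (adjusted p = 0.879) and at 0.34 ± 0.14 at 72 h (adjusted p = 0.0925).

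The BAG proteins also release nucleotide from HSP70 and link it to other pathways. BAG5 rose 1.33-fold at 24 h (adjusted p = 0.0049), with 10.16, 10.11 and 10.11 in Ota cells against 9.74, 9.74 and 9.65 in control cells. Another BAG5 probe set was higher too, with 8.76, 8.59 and 8.52 in Ota cells against 7.96, 7.56 and 7.77 in control cells. BAG5 did not pass when its probe sets were averaged (0.34, adjusted p = 0.0897). That average includes a dim probe set with means of 3.60 in Ota and 3.84 in control cells, just below the filter value. BAG2, an inhibitor of the ubiquitin ligase CHIP, fell at 24 h by 0.70 ± 0.20 (adjusted p = 0.0226), but its arrays overlapped, at 8.93 to 9.77 in Ota cells and 9.71 to 10.39 in control cells. The call was lost without Ota 24 h replicate 2 (-0.46), control 24 h replicate 1 (-0.65) or control 24 h replicate 3 (-0.55), at adjusted p of 0.07 to 0.0815. Averaging its probe sets gave -0.28, but the other BAG2 probe sets lay below the filter. Their 24 h means were 2.45 and 3.40 in Ota cells and 2.41 and 3.57 in control cells, which shrinks that average. BAG1 fell by 0.38 ± 0.12 at 24 h and by 0.37 ± 0.12 at 72 h (adjusted p = 0.0335 and 0.0385). The BAG1 call was lost at both times when some single arrays were left out, at adjusted p of up to 0.134, and averaging its probe sets gave 0.15 and -0.13. BAG3, the stress-inducible member of the family that works with HSPB8, did not pass at either time. It had 9.45, 9.53 and 9.33 in Ota cells against 9.41, 9.33 and 9.40 in control cells at 24 h, and 9.12, 9.08 and 8.75 against 9.13, 8.90 and 9.03 at 72 h.

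HSP90AA1 and HSP90AB1, the inducible and constitutive cytosolic HSP90 genes, were among the brightest members. On their brightest probe sets they passed at neither time. HSP90AA1 had 14.38, 14.23 and 14.39 in Ota cells, against 14.54, 14.35 and 14.52 in control cells at 24 h (-0.14, 95% interval -0.33 to 0.05). The 72 h values were 14.40, 14.44 and 14.40 in Ota cells, against 14.26, 14.32 and 14.14 in control cells (0.17, interval -0.02 to 0.36). The other HSP90AA1 probe sets had means of 13.18, 13.73 and 14.17 in Ota cells at 24 h, against 13.52, 13.96 and 14.31 in control cells. Their 72 h means were 13.49, 13.89 and 14.24 in Ota cells, against 13.24, 13.66 and 14.03 in control cells. The means of every HSP90AA1 probe set were thus lower with Ota at 24 h and higher at 72 h. HSP90AB1 was at 0.17 (interval -0.09 to 0.44) and 0.03 (interval -0.23 to 0.29), and at 24 h passed as higher (0.30, adjusted p = 0.0469) with the arrays set to 1 common median. CHORDC1, a zinc-binding HSP90 co-chaperone, had the largest fall of all members on their brightest probe sets. It had 8.08, 7.61 and 8.23 in Ota cells at 24 h, against 9.18, 8.92 and 9.42 in control cells, a fall by 1.20 ± 0.18 (adjusted p = 0.000428) with no overlap. Averaging its probe sets gave -0.59 (adjusted p = 0.0011), but the other CHORDC1 probe set lay on the floor near log2 2.3, which shrinks that average. At 72 h its Ota arrays, at 8.55, 8.36 and 8.79, again lay below its control arrays, at 8.98, 9.14 and 8.90, but the change of -0.44 ± 0.18 did not pass (adjusted p = 0.0785, or 0.0411 with the replicate number as a block). STIP1, which bridges HSP70 and HSP90, rose 1.27-fold at 72 h (adjusted p = 0.0241) with 10.58, 10.51 and 10.43 in Ota cells against 10.19, 10.19 and 10.13 in control cells. That call was lost, at adjusted p of 0.0549 to 0.0874, without Ota 72 h replicates 1 or 2 or control 72 h replicates 1 or 3. From 24 h to 72 h the STIP1 mean went from 10.77 to 10.17 in control cells and from 10.69 to 10.51 in Ota cells. FKBP4 and PPID, co-chaperones with prolyl isomerase activity, passed at neither time.

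The 5 analysed genes with the printed heat shock element covered the whole range of the responses at 24 h. DNAJB6 was at 1.38, HSP90AB1 at 0.17, HSPD1 at 0.14, HSP90AA1 at -0.14 and CHORDC1 at -1.20 on the log2 scale. On these brightest probe sets DNAJB6 and CHORDC1 alone among them passed. CHORDC1, with 3 overlapping matches, and DNAJB6, with 1, moved in opposite directions. Each of these was read from 1 probe set above the filter, with no second one to set beside it. Their probe sets of several symbols were not read. At 72 h the 5 genes, in the order given for 24 h, were at 0.79, 0.03, -0.03, 0.17 and -0.44, and DNAJB6 passed. HSF1, the factor that binds the element, was at -0.16 ± 0.08 at 24 h and -0.13 ± 0.08 at 72 h (adjusted p = 0.167 and 0.246), with 5.30, 5.33 and 5.29 in Ota cells against 5.45, 5.50 and 5.45 in control cells at 24 h. Its mRNA level does not measure its activity.

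CRYAB, a small heat shock protein that also binds desmin and actin filaments, changed direction against control between the times. It was read from 1 probe set, the only one it has. At 24 h it had 10.76, 10.88 and 10.90 in Ota cells, against 11.16, 11.30 and 11.24 in control cells. At 72 h it had 11.59, 11.70 and 11.68 in Ota cells, against 10.72, 10.58 and 10.75 in control cells. The groups did not overlap at either time: CRYAB fell by 0.39 ± 0.08 at 24 h (adjusted p = 0.00477) and rose 1.97-fold at 72 h (adjusted p = 1.9e-05). The 24 h fall was at -0.26 (adjusted p = 0.0567) with the arrays set to 1 common median. HSPB1, which encodes HSP27, a very abundant small heat shock protein, had 13.52, 13.61 and 13.46 in Ota cells at 72 h, against 13.19, 13.04 and 13.07 in control cells. Against control it rose 1.35-fold (adjusted p = 0.00875) without overlap. From 24 h to 72 h its mean went from 13.64 to 13.10 in control cells and from 13.46 to 13.53 in Ota cells. At 24 h HSPB1 was at -0.18 ± 0.10 (adjusted p = 0.21), and fell by 0.30 (adjusted p = 0.0266) without control 24 h replicate 3, whose 13.41 lay below 13.75 and 13.77 in its group. HSPB8, the partner of BAG3 in selective autophagy, rose 1.40-fold at 24 h (adjusted p = 0.0309). Its arrays had 10.34, 10.38 and 10.47 in Ota cells, against 10.01, 9.54 and 10.19 in control cells. HSPB8 was at 0.30 (adjusted p = 0.0867) without control 24 h replicate 2, which had 9.54. Any of the 3 Ota 24 h arrays left out also ended the call (adjusted p of 0.0567 to 0.0816). Averaging its probe sets gave 0.25 (adjusted p = 0.0522), but the other HSPB8 probe set lay on the floor near log2 1.98, which shrinks that average. HSPB8 at 72 h was at 0.39 ± 0.15 (adjusted p = 0.0685, or 0.0275 with the replicate block). IFT25, a subunit of the intraflagellar transport complex of cilia despite its older heat shock name, rose 1.54-fold at 72 h (adjusted p = 0.00843), with 11.70, 11.72 and 11.86 in Ota cells against 11.12, 11.14 and 11.16 in control cells. That probe set also carries the suffix for possible cross-matches, and another probe set of IFT25 rose by 0.60. From 24 h to 72 h the mean of the brightest IFT25 probe set went from 11.70 to 11.14 in control cells. In Ota cells it was 11.76 at both times. Averaging its probe sets gave 0.39 (adjusted p = 0.0147), with a further IFT25 probe set on the floor near log2 2.7.

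TRiC subunits form a fixed complex, and 4 of the 6 listed ones tested were higher than control at 72 h by small amounts, beside 17.1% of all genes. None of the 6 passed at 24 h, where they ranged from -0.03 to 0.15. The further chaperonin genes CCT6A and CCT6B, tested with the wider network below, passed at neither time. CCT5 at 72 h had 12.51, 12.42 and 12.51 in Ota cells, against 12.14, 12.05 and 12.07 in control cells, a 1.31-fold rise (adjusted p = 0.00509). Averaging both CCT5 probe sets gave 1.04 at 24 h and 1.14 at 72 h (adjusted p = 0.000151 and 9.09e-05), both past the threshold. CCT2 rose 1.23-fold, CCT7 1.22-fold and CCT3 1.19-fold (adjusted p = 0.0218, 0.0211 and 0.0193), each without overlap between the groups. CCT3 had 12.20, 12.26 and 12.24 in Ota cells, against 11.99, 12.01 and 11.97 in control cells, so the small change was wider than the spread of its arrays. CCT4 was at -0.00 ± 0.07 and CCT8 at 0.09 ± 0.09, and neither passed. Each of the CCT2, CCT3 and CCT7 calls was lost when 1 of 4 arrays of the 72 h groups was left out, at adjusted p of 0.0523 to 0.0845, and these included Ota 72 h replicate 2 and control 72 h replicate 1 for all 3 genes. The same 4 subunits fell in control cells at 72 h against 24 h, by 0.31 to 0.60, a comparison that shares the control 72 h arrays.

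**Figure D3:**
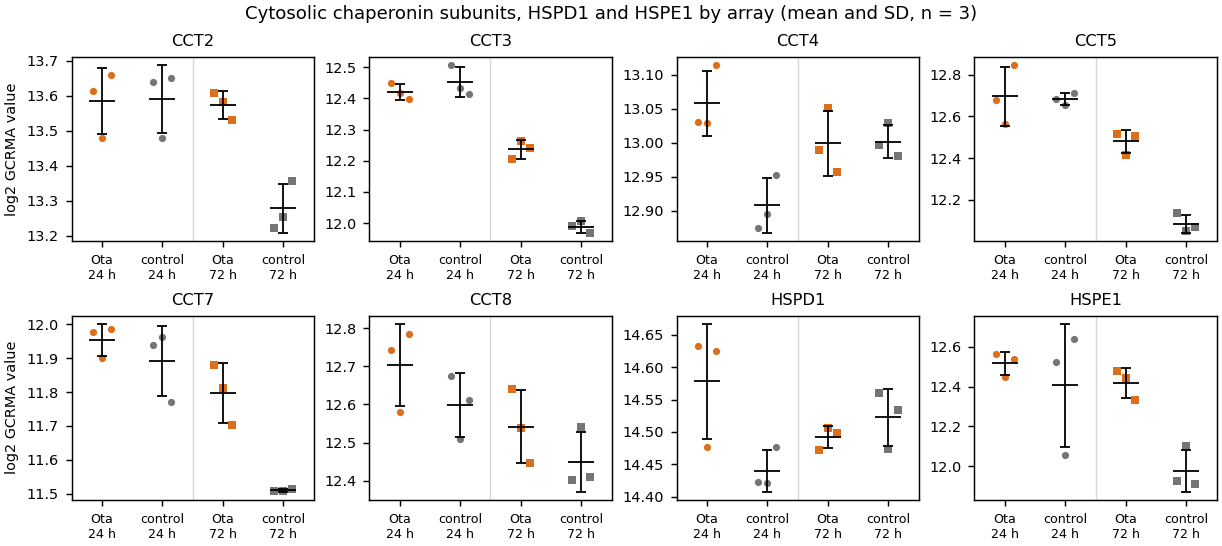
Log2 GCRMA value (y axis) of the 6 listed TRiC subunits tested and of the mitochondrial chaperonin genes HSPD1 and HSPE1 in each array of the 4 groups (x axis), with the mean and SD of 3 arrays. The control arrays at 72 h lie lowest for CCT2, CCT3, CCT5 and CCT7, and y axes differ between panels.

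Of the mitochondrial chaperones, HSPE1 alone passed. It had 12.48, 12.45 and 12.33 in Ota cells at 72 h, against 11.92, 12.10 and 11.91 in control cells, a 1.36-fold rise (adjusted p = 0.027). The call was lost without Ota 72 h replicates 1 or 2 or control 72 h replicates 1 or 3, at adjusted p of 0.0673 to 0.0853. From 24 h to 72 h the HSPE1 mean went from 12.41 to 11.98 in control cells and from 12.52 to 12.42 in Ota cells. HSPD1, its partner, is transcribed in the opposite direction on chromosome 2, with RefSeq start sites 105 and 539 bases from that of HSPE1. The printed HSPD1 window belongs to the farther start. HSPD1 did not pass, with 14.47, 14.51 and 14.50 in Ota cells against 14.56, 14.47 and 14.53 in control cells at 72 h (-0.03, interval -0.20 to 0.14). At 24 h it was at 0.14 (interval -0.03 to 0.30), and it passed at 0.26 (adjusted p = 0.0224) with the arrays set to 1 common median and at 0.42 (adjusted p = 0.00546) with its probe sets averaged. HSPD1 was among the brightest members. HSPA9, the matrix HSP70, TRAP1, the matrix HSP90, and DNAJA3, the matrix J-domain protein, passed at neither time.

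Some probe sets of the same gene disagreed. Of 22 chaperone genes with at least 2 tested probe sets, 4 had probe sets called in opposite directions at 24 h (BAG1, HSPA4, HSPA14 and PPID) and 1 at 72 h (HSPA4). Over all 5200 such genes it was 9.25% at 24 h and 3.08% at 72 h. Among the probe sets of chaperone genes other than the brightest, 9 of 35 were higher and 7 lower at 24 h, and 7 higher and 3 lower at 72 h. Over all genes 16.2% of such probe sets were higher and 16.3% lower at 24 h, and 17.7% and 10.1% at 72 h. Over all probe sets tested 12.9% were higher and 18.1% lower at 24 h, and 16.4% and 11.8% at 72 h.

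The dimmer probe sets held the largest rises of the whole set of members. The dim CCT5 probe set had 9.50, 9.45 and 9.48 in Ota cells, against 7.64, 6.74 and 7.84 in control cells at 24 h. At 72 h it had 9.56, 9.30 and 9.54 in Ota cells, against 7.64, 7.52 and 7.58 in control cells. It rose 4.18-fold and 3.70-fold (adjusted p = 4.97e-05 and 0.000157, over all probe sets), while the bright CCT5 probe set was at 0.01 and 0.39 in the same cells. A dim HSPD1 probe set had 7.02, 6.97 and 7.24 in Ota cells at 24 h, against 5.15, 4.89 and 5.44 in control cells, and rose 3.77-fold (adjusted p = 1.91e-06) and 2.81-fold at 72 h. The HSPA4 probe set at 8.35, 8.26 and 8.17 in Ota cells, against 6.27, 5.86 and 6.66 in control cells at 24 h, rose by 2.00 on the log2 scale where the other 3 fell. A dim HSPH1 probe set rose 2.94-fold and 3.04-fold (adjusted p = 0.000625 and 0.000765), and a dim PPID probe set 2.23-fold and 3.20-fold from levels near the filter. A dim HSPA9 probe set rose 2.27-fold at 24 h (adjusted p = 0.000828) and was at 0.14 at 72 h. These probe sets were picked for their values. The files do not say which part of a transcript each reads, and what the disagreement comes from was not tested.

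**Figure D4:**
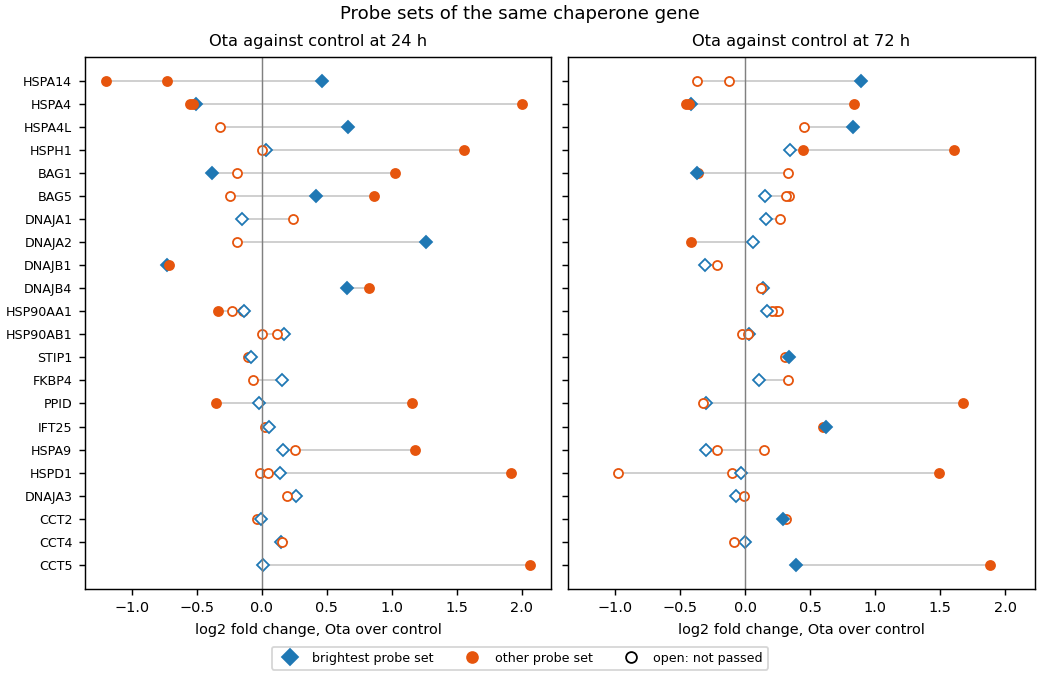
Log2 fold change of Ota over control (x axis) for every tested probe set of the 22 chaperone genes with more than 1, at 24 h (left) and 72 h (right), with diamonds for the brightest probe set, circles for the others and filled symbols for those past the threshold. Dimmer probe sets of CCT5, HSPA4, HSPD1 and HSPH1 lie far to the right of their brightest ones at both times.

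The responses at 72 h and at 24 h differed for 5 of the 36 genes, 3 upward and 2 downward, where 15.5% and 5.79% of all genes did (limma, interaction). CRYAB moved up by 1.37 ± 0.12 between the responses (adjusted p = 7.47e-05), HSPB1 by 0.61 ± 0.15 (adjusted p = 0.0139) and CCT5 by 0.38 ± 0.12 (adjusted p = 0.0443). DNAJA2 was at -1.20 ± 0.17 (adjusted p = 0.000886) and DNAJB4 at -0.52 ± 0.12 (adjusted p = 0.0135), both with a response at 24 h and none that passed at 72 h. With the replicate number as a block the upward count was 7, and it was 7 without Ota 24 h replicate 3 or control 24 h replicate 2, and 1, CRYAB, with the arrays set to 1 common median. That setting also turned the split over all genes, to 1164 higher and 1187 lower against 1659 and 619 as deposited. The planned common median of all probe sets gave an upward count of 7, with 1924 higher and 499 lower over all genes. CCT5 lost its call with most single arrays left out, while CRYAB, DNAJA2 and DNAJB4 kept theirs under each setting tried.

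Members also changed with time in culture. In control cells at 72 h against 24 h, 7 chaperone genes were higher and 14 lower, with 22.7% and 23.6% of all genes. DNAJB2 rose by 1.00, DNAJA2 by 0.97, DNAJB4 by 0.66 and HSPA9 by 0.64, and HSPA14 fell by 0.91, HSPA4 by 0.72, and STIP1 and CCT5 by 0.60 each (limma, adjusted p of at most 0.0134). In Ota cells at 72 h against 24 h, 5 were higher and 3 lower, with 22.2% and 9.99% of all genes. DNAJB2 rose by 1.35, CRYAB by 0.81, CHORDC1 by 0.60, DNAJB1 by 0.59 and HSF1 by 0.27, and HSPA4 fell by 0.63, HSPA14 by 0.48 and BAG3 by 0.45 (adjusted p of at most 0.027). The 5 was 3 without Ota 24 h replicate 2 or Ota 72 h replicate 1. With the arrays set to 1 common median the 3 was 10, and the split over all genes was 1666 higher and 2008 lower, against 2378 and 1069 as deposited. With the planned common median of all probe sets that split was 2703 and 841. Single arrays ended the calls of HSPA9 in control cells (without control 24 h replicate 3 or control 72 h replicate 1) and of CHORDC1 in Ota cells (without Ota 24 h replicate 2, Ota 72 h replicate 1 or Ota 72 h replicate 3). Averaging probe sets gave -0.40 for HSPA14, -0.34 for HSPA4 and -0.21 (adjusted p = 0.193) for CCT5 in control cells, and 0.22 (adjusted p = 0.285) for HSPA14 and 0.29 for CHORDC1 in Ota cells. The CHORDC1 average includes its probe set on the floor. These comparisons share arrays with those above. Most of the genes higher with Ota than in control cells at 72 h were also lower in control cells over time. They were HSPA14, STIP1, HSPB1, IFT25, CRYAB, HSPE1, CCT2, CCT3, CCT5 and CCT7. CRYAB alone of the genes higher with Ota at 72 h was also higher in Ota cells over time. For DNAJA2 and DNAJB4 the control level at 72 h, at means of 10.3 and 8.98, had come close to the Ota level at 24 h, at 10.6 and 8.98.

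The wider chaperone network was read from 92 further genes, of which 75 were tested. At 24 h 5 were higher (6.67%) and 13 lower (17.3%), below the shares over all genes of 9.44% and 21.6%. At 72 h 9 were higher (12%) and 17 lower (22.7%), beside 17.1% and 14.9% of all genes. In the HSP70 system, HSPA2, an HSP70 best known from testis, fell by 0.83 ± 0.12 at 24 h and rose by 0.83 ± 0.12 at 72 h. HSPA12A rose by 0.49 and 0.91, and SIL1, a nucleotide exchange factor of the endoplasmic reticulum, fell by 0.73 and 1.08. Among 26 other J-domain genes 2 rose (7.69%) and 5 fell (19.2%) at 24 h, close to the shares over all genes. At 72 h 2 rose and 10 fell (38.5%, beside 14.9% of all genes). DNAJC30, a mitochondrial one, fell by 2.27 ± 0.12 and 1.09 ± 0.12, and DNAJC19 by 0.77 at 24 h. DNAJC10 and DNAJC1, of the endoplasmic reticulum, fell by 1.01 and 0.71 at 72 h. DNAJC9, a histone chaperone, fell by 0.73 at 24 h and rose by 0.42 at 72 h on its brightest probe set, and averaging its probe sets gave 0.17 at 24 h. HSPB2, a small heat shock gene next to CRYAB and read from the opposite strand, fell by 0.59 and 0.65, at 72 h against the rise of CRYAB.

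Of 11 other HSP90 co-chaperones 0 rose and 2 fell (18.2%) at 24 h, beside 9.44% and 21.6% of all genes. The 2 were SUGT1 (0.36) and PIH1D1 (0.51). At 72 h 1 rose and 1 fell (9.09% each), beside 17.1% and 14.9% of all genes. The protein phosphatase PPP5C rose by 0.57 at 72 h and SUGT1 fell by 0.52, but the mean of the SUGT1 probe sets was at 0.06 and -0.06. Among 9 other mitochondrial genes the protease LONP1 fell by 0.60 and 0.81, CLPB by 1.09 at 24 h and YME1L1 by 0.39 at 72 h, and CLPX rose by 0.37 at 24 h. Of 12 prefoldin, chaperonin and tubulin cofactor genes, TBCC fell by 0.77 and 0.98. TBCA rose by 0.31 at 24 h, and TBCB and TBCD rose by 0.39 and 0.57 at 72 h, when VBP1 passed too. HSBP1, which binds HSF1 and dampens it, rose by 0.49 ± 0.08 at 72 h. The limma adjusted p of the genes named here was at most 0.035. At 24 h the calls of HSPA12A, TBCA, CLPX and SUGT1 were lost when some single arrays were left out: HSPA12A without Ota 24 h replicates 1 or 3 or control 24 h replicates 1 or 2, at adjusted p of up to 0.118. TBCA lost its call without Ota 24 h replicates 2 or 3 or control 24 h replicate 2, CLPX without Ota 24 h replicate 2 or control 24 h replicate 1, and SUGT1 without Ota 24 h replicate 1. With only the arrays compared in the fit, HSPA12A, TBCA, CLPX, SUGT1, DNAJC19 and HSPB2 did not pass at 24 h (adjusted p of 0.0505 to 0.0711). Averaging probe sets gave 0.25 and 0.45 for HSPA12A, -0.56 for CLPB at 24 h, and 0.26 for PPP5C and 0.17 for TBCD at 72 h, where PPP5C and TBCD did not pass (adjusted p = 0.0542 and 0.0599). In bulk RNA, fewer cells that express a gene and less RNA per cell cannot be told apart, for these genes and for all those above.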

How the data were processed

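Expression was measured on Affymetrix arrays (platform annotation with 54675 probe sets) in 12 HK-2 samples. The deposited values are log2 values that the authors computed by GCRMA, per the submitters' processing notes. GCRMA models background from probe sequence, normalizes by quantiles and summarises probe sets. For it, no version or setting is given in the sources used. Values near 2 to 4 sit on a floor, which limits fold changes there. Arrays have no read depth, and their number limits the precision.

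Gene symbols from the platform annotation were updated through gene identifiers with RefSeq (GRCh38.p14). Each of 19775 genes was read from its probe set with the highest mean. The 10699 genes above log2 4 on at least 3 arrays were fitted with 1 mean per group in limma 3.58.1 under R 4.3.3 (lmFit, eBayes, 8 residual and 3.31 prior degrees of freedom, Benjamini-Hochberg over all genes). The same fit over 22477 probe sets gave probe set calls. The 62 control probe sets were left out, and 1801 probe sets with several symbols and 11721 with none named no gene. The script was tested on simulated data. Figures were drawn with matplotlib 3.10.9.

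Named genes were the members past the threshold in a comparison with Ota or in the difference of responses, a fixed set of central chaperones, the 4 largest changes over time in each direction, and up to 3 genes by smallest p per list of other chaperone genes. Members and lists were chosen with earlier results of these data known. Deviations from group means correlated between Ota and control arrays of the same number at r = 0.439, 0.323 and 0.455 at 24 h, and at 0.11, 0.0674 and 0.268 at 72 h. Between 72 h and 24 h arrays of the same number r was 0.246, 0.08 and 0.181 in control cells and 0.127, 0.0907 and 0.201 in Ota cells. Arrays of unlike number were not compared, so a pairing by number, strongest at 24 h, is possible but not shown. These correlations come from the data, and the main fit does not use the numbers, while the replicate block does. Alternatives were probe set choice, filters, scaling, floor, variance model, replicate block, the arrays in the fit and leaving out each array. Averages of a gene's probe sets included those below the filter, which can shrink a change without any probe set going the other way.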

Additional observations from a re-analysis of the deposited data

Results flagged for a closer look

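The response to Ota differed between 72 h and 24 h for 5 chaperone genes, by the test of the difference itself. On the log2 scale, the response at 72 h minus that at 24 h was 1.37 for CRYAB, 0.61 for HSPB1, 0.38 for CCT5, -0.52 for DNAJB4 and -1.20 for DNAJA2. CRYAB in Ota cells was below control at 24 h and above it at 72 h. HSPB1 and CCT5 were higher at 72 h and did not pass at 24 h. DNAJA2 and DNAJB4 were higher at 24 h and did not pass at 72 h, and the second DNAJA2 probe set did not share the 24 h rise.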

How the results depend on the processing

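The limits here are 3 arrays a group, a floor at log2 values near 2 to 4, and probe sets of a gene that differ. Over all alternatives, 197 counts stayed within 1.5 times and 21 moved further. Of the log2 fold changes, 2706 kept direction and side of the threshold, 122 lost a call, 54 gained one and 43 changed sign. The cause was not tested for any change. The replicate block changed no call at 24 h. At 72 h it added CHORDC1 and HSPB8, and for the difference of responses HSPA14, STIP1, CHORDC1 and IFT25 as higher, 7 in all, and DNAJB6 as lower. In control cells over time it added DNAJB6 and PPID and ended the call of HSP90AA1 (adjusted p = 0.0524). An alternative added after seeing the data, shifting arrays to a common median of the genes tested, gave 11 higher at 24 h, 1 higher in the difference and 10 lower in Ota cells over time, and turned these uncalled values: STIP1 0.042, CCT2 0.12 and CCT3 0.093 at 24 h, and HSPA4 -0.054, BAG1 -0.13 and HSF1 -0.11 in the difference. Over all genes that shift left 1881 higher and 1694 lower at 24 h, against 1010 and 2307 as deposited. The trend and robust prior gave 8 higher in the difference and 5 lower in Ota cells over time. A common median of all probe sets gave 7 higher in the difference and 1 lower at 72 h, and no filter gave 1 lower at 72 h. Averaging the probe sets of a gene gave 0 lower at 72 h and 6 higher in the difference. It turned HSPA14 (-0.49), HSPA4 (0.10), BAG1 (0.15), DNAJC9 (0.17) and SUGT1 (0.062) at 24 h. It also turned BAG2 (0.028), DNAJA2 (-0.18) and HSPD1 (0.075) at 72 h, HSPA4 (-0.22), BAG1 (-0.28) and HSF1 (-0.22) in the difference, and HSPA14 (0.22) in Ota cells over time. Repeated quantile normalization turned CCT5 at 24 h (-0.0081), HSPD1 at 72 h (0.018), and BAG1 (-0.079) and HSF1 (-0.067) in the difference, and the common median of all probe sets turned CCT5 at 24 h (-0.016). Leaving out single arrays gave counts of 1 to 3 lower at 72 h, 7 to 14 higher at 72 h, 2 to 7 higher in the difference and 3 to 5 higher in Ota cells over time. Uncalled values that changed sign at 24 h ranged over CCT2 -0.062 to 0.047, IFT25 -0.070 to 0.23, CCT5 -0.063 to 0.077 and HSPE1 -0.064 to 0.23. Uncalled values that changed sign at 72 h ranged over HSP90AB1 -0.053 to 0.12 and BAG3 -0.10 to 0.086. Uncalled values that changed sign in the difference ranged over BAG1 -0.065 to 0.14, HSF1 -0.021 to 0.088, BAG3 -0.16 to 0.030 and HSPB8 -0.23 to 0.10.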
